A study of Mus musculus with 6 samples.

Results

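Ion channel subunit genes were compared between bronchioalveolar stem cells, alveolar type 2 cells and Club cells of the mouse lung. The genes were chosen by name and biotype, with earlier results of these data known. Protein coding genes were taken whose symbols mark them as potassium (Kcn), sodium (Scn), Clcn chloride, anoctamin (Ano), TRP or calcium (Cacn) genes. Those of GABA-A receptors (Gabr), nicotinic receptors (Chrn) and P2X receptors (P2rx) were also taken, plus Cftr. This gave 131 of the 22239 genes in the deposited table. In GENCODE mouse release 21 the same pattern finds 222 genes, and the others were not analysed here. RNA had been sequenced in bulk from 6 samples of mice aged 8 weeks, 2 per population, sorted on endogenous reporters after CD31 and CD45 bearing cells had been depleted. Bronchioalveolar stem cells (BASC) carried both CCSP-mCherry, the reporter of the club cell secretory protein, and SPC-YFP, the reporter of surfactant protein C. Alveolar type 2 (AT2) cells were sorted as SPC-YFP+ and Club cells as CCSP-mCherry+. Whether the 2 samples of a population are separate animals is not in the labels, and the p-values below therefore speak only to the spread between the samples sequenced.

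Ion channels set the salt and water content of the liquid that lines airways and alveoli. Sodium enters the cell from this liquid through the epithelial sodium channel, and chloride passes through CFTR and calcium-activated channels such as ANO1. Potassium channels keep the membrane potential that drives both flows, and calcium-permeable and ligand-gated channels couple stretch, ATP or transmitters to secretion. Many channels are assembled from a pore-forming subunit and auxiliary subunits that change its gating, so the set of subunit genes a cell expresses bears on which channels it can build.

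The populations carried the markers of their labels. Summed over 7 AT2 markers, normalised read counts were 1010941 and 1103764 in AT2, 939976 and 952763 in BASC, and 77371 and 95598 in Club cells. Summed over 6 Club markers, they were 6693 and 5858 in AT2, 70296 and 87143 in BASC, and 1048849 and 1038729 in Club cells. The Club samples also held more RNA of ciliated and goblet cell genes than the AT2 samples. All 6 ciliated markers and 4 of 5 goblet markers were higher in Club cells than in AT2, and the ciliated sum was 8258 and 8272 in Club cells, 2410 and 2762 in AT2, and 2918 and 2961 in BASC. The goblet sum was 73567 and 64330 in Club cells, 68 and 37 in AT2, and 418 and 517 in BASC, with Muc5ac listed at 0 in both AT2 samples. Markers of alveolar type 1 and tuft cells were lower in Club samples as summed levels. The sum of 5 type 1 markers lay between 11313 and 13713 in BASC and AT2 and was 4458 and 4576 in Club cells (2 called higher and 1 lower in AT2 than in Club cells), and that of 3 tuft markers lay between 346 and 481 and was 186 and 196 (1 called higher in AT2). Other lists were low: the neuroendocrine sum lay between 8 and 29, the endothelial sum between 9 and 60 and the mesenchymal sum between 16 and 154 in every sample. Foxi1, which defines ionocytes, was listed at 0 in 5 samples and at 14 in AT2 replicate 2, while Atp6v1c2, which makes up most of the ionocyte sum, lay between 3650 and 4165 in BASC and AT2 and was 2059 and 2124 in Club cells. The part of such cells in the differences below was not tested. Estimated reads per sample lay between 10118863 and 18203252, and a listed 0 leaves room for up to 3 reads, worth 2.29 to 4.02 units of the table depending on the sample (counting error only).

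Of the 131 genes, 105 had a normalised count of at least 10 in at least 2 samples and were tested, and 26 were not, none of which exceeded 51 in any sample. A gene is called here when its limma p-value, adjusted over all 17721 genes tested, was under 0.05. By this rule 33 channel genes were called in at least 1 comparison. Shares of all genes are given for each comparison and not for any of the 3 together. Between AT2 and Club cells 10 channel genes were higher and 21 lower in AT2, which is 9.52% and 20% of those tested, beside 8.42% and 9.71% of all genes and 9.95% and 11.3% of protein coding genes. Between BASC and Club cells 9 were higher and 15 lower in BASC (8.57% and 14.3%, beside 5.77% and 5.42% of all and 6.92% and 6.37% of protein coding genes). Between BASC and AT2 cells 4 were higher and none lower, or 3.81% and 0%, beside 0.553% and 0.079% of all and 0.696% and 0.105% of protein coding genes. At an unadjusted p under 0.05, limma found 13 of the 105 channel genes higher and 5 lower in BASC than in AT2. Over all 17721 genes tested, 1257 were higher and 1079 lower at that threshold. The median log2 fold change of the channel genes was -0.61 for AT2 against Club, -0.27 for BASC against Club and 0.12 for BASC against AT2, beside -0.10, -0.10 and 0.00 over all genes tested. These 3 comparisons share samples, so they are not independent of each other. In bulk samples fewer cells of a type and less RNA per cell cannot be told apart.

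**Figure D1:**
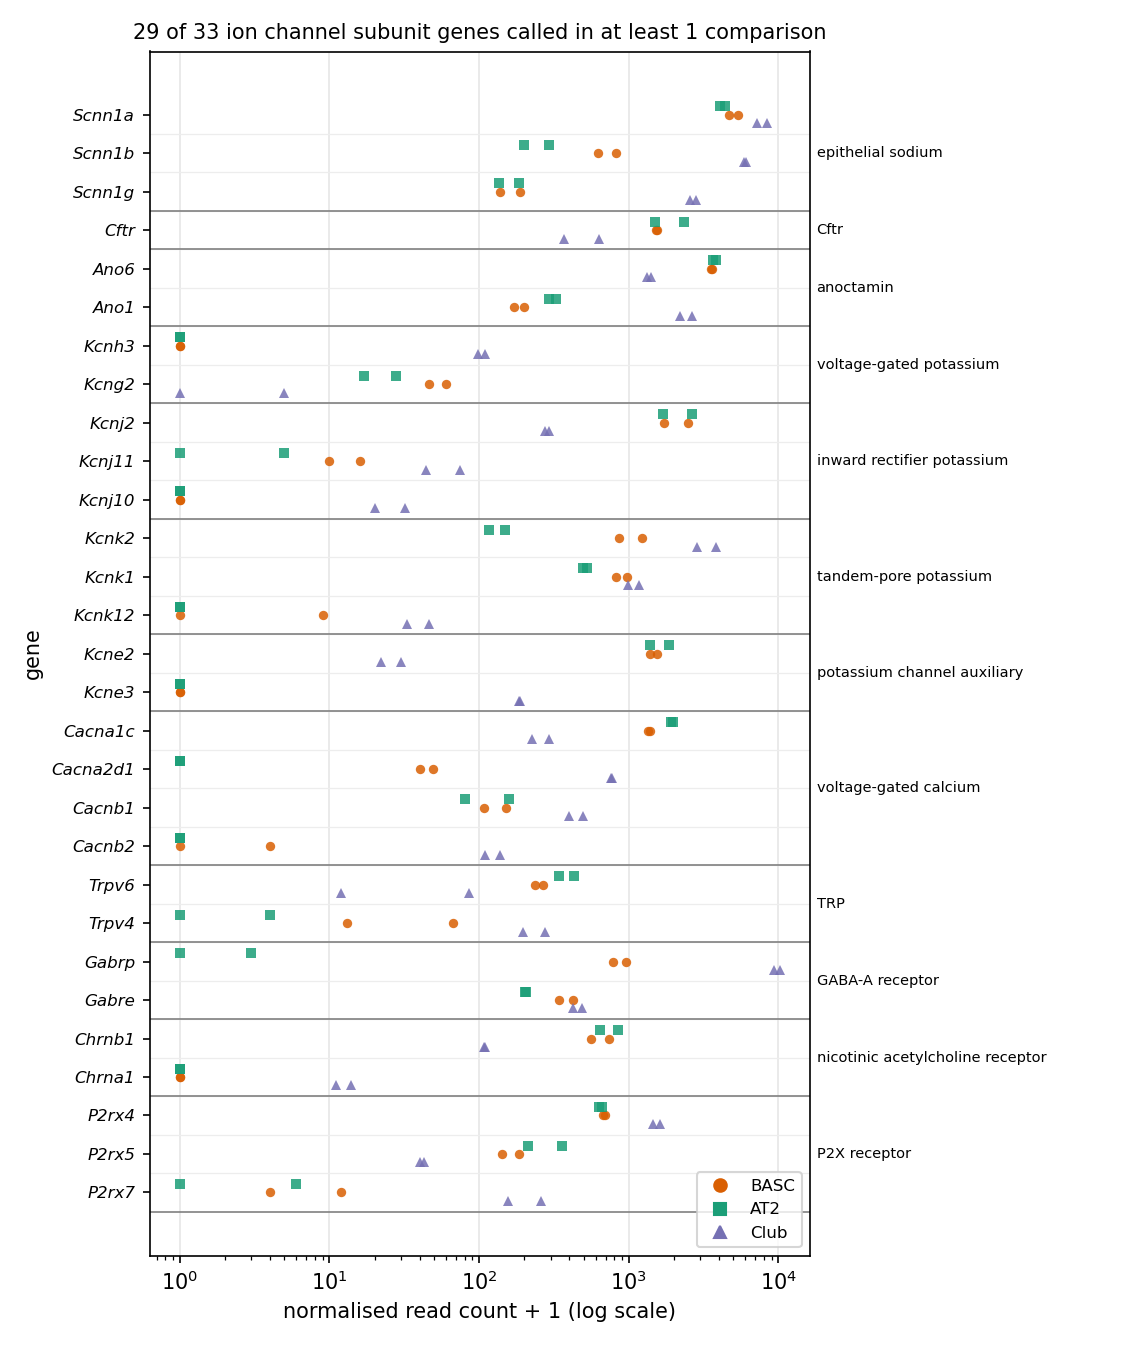
Normalised read count plus 1 on a log axis for 29 of the 33 channel genes called in at least 1 comparison, by channel family, with 1 point per sample (circles BASC, squares AT2, triangles Club cells). For most genes the BASC points lie on or near the AT2 points. Gabrp, Kcnk2, Cacna2d1 and Scnn1b, the genes called between BASC and AT2, have BASC points apart from both other populations. Some genes not called between BASC and AT2, such as Cacna1c and Kcnk1, do so too.

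The epithelial sodium channel is built from the subunits alpha, beta and gamma, encoded by Scnn1a, Scnn1b and Scnn1g. All 3 genes were lower in AT2 and in BASC than in Club cells, and Scnn1b alone of the 3 was called between BASC and AT2. Scnn1a (ENSMUSG00000030340, GRCm38 chromosome 6, 125320659 to 125344943), the subunit needed for channel activity, had normalised counts of 4082 and 4384 in AT2, 5382 and 4696 in BASC, and 7219 and 8445 in Club cells. The populations were in the order Club, BASC, AT2 without overlap, but the step from AT2 to BASC was not called (log2 fold change 0.25 with an SE of 0.13 and 2 samples on each side, limma adjusted p = 0.474). Scnn1a was 1.85-fold lower in AT2 than in Club cells (adjusted p = 0.00357) and 1.55-fold lower in BASC (adjusted p = 0.0217). The latter call was lost without BASC replicate 1, BASC replicate 2 or Club replicate 2 (adjusted p = 0.0612, 0.114 and 0.136).

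Scnn1b (ENSMUSG00000030873, chromosome 7, 121865038 to 121918512), for the beta subunit, had 200 and 292 in AT2, 618 and 821 in BASC, and 5858 and 6075 in Club cells. BASC thus lay apart from both other populations, 2.92-fold above AT2 (log2 fold change 1.56 ± 0.23, limma adjusted p = 0.0414) and 8.29-fold below Club cells (adjusted p = 0.00028). The step from AT2 to BASC was not called without BASC replicate 1 or 2 (adjusted p = 0.176 and 0.272) or AT2 replicate 1 or 2 (0.109 and 0.0539). Scnn1g (ENSMUSG00000000216, chromosome 7, 121734479 to 121768475), for the gamma subunit, had 134 and 183 in AT2, 137 and 188 in BASC, and 2550 and 2806 in Club cells. Here BASC and AT2 overlapped (log2 fold change 0.04 ± 0.27, adjusted p = 0.983), and BASC lay 16.5-fold below Club cells (adjusted p = 0.000155).

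Scnn1g and Scnn1b lie 96.6 kb apart on the same strand of chromosome 7, with 1 other gene of the deposited table between them. They stood in different proportions in the 3 populations. Per kilobase of exons, which allows genes to be compared roughly, the ratio of Scnn1b to Scnn1g was 1.7 and 1.81 in AT2, 5.12 and 4.96 in BASC, and 2.61 and 2.46 in Club cells. BASC had the highest ratio in both samples and AT2 the lowest. With 2 samples against 2 an exact two-sided permutation test cannot go below p = 0.333, so the difference in ratio was not tested. The ratio of Scnn1a to Scnn1b was 13 and 9.57 in AT2, 5.55 and 3.64 in BASC, and 0.785 and 0.886 in Club cells. In AT2 samples Scnn1a made up 89.1% and 86% of the summed per-kilobase level of the 3 genes, in BASC 82.3% and 75.2%, while in Club cells Scnn1b led with 46.1% and 43.6%. With longest-transcript lengths the ratio of Scnn1a to Scnn1b in the Club samples was 0.913 and 1.03, so that Scnn1a led in replicate 2.

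Promoter sequences of 4 genes are shown as examples. Gabrp, Cacna2d1 and Scnn1b had BASC levels between those of AT2 and Club cells, while for Scnn1g BASC overlapped AT2. Kcnk2, described below, also had BASC levels between the other populations and is not among the 4. They are RefSeq sequences of GRCm38.p6, from 250 bases before to 50 bases after the annotated start, written 5′ to 3′ on the gene's strand. Such sequences were found for 99 of the 131 genes. Capitals mark matches, on either strand, to the GC box GGGCGG, the TATA box TATAAA, the FOXA motif TGTTTAC, the NKX2-1 motif CAAGTG or the AP-1 motif TGANTCA. These motifs were found in 35.7%, 13.6%, 3.65%, 13.6% and 7.81% of all 32851 promoter windows of this length.
Gabrp, chr11:33578908-33579207, minus strand: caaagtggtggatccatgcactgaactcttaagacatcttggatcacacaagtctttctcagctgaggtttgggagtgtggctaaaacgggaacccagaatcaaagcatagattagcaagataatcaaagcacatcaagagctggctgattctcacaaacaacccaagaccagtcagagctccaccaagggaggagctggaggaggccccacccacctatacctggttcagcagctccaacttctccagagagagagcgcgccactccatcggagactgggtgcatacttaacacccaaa
Cacna2d1, chr5:15934441-15934740, plus strand: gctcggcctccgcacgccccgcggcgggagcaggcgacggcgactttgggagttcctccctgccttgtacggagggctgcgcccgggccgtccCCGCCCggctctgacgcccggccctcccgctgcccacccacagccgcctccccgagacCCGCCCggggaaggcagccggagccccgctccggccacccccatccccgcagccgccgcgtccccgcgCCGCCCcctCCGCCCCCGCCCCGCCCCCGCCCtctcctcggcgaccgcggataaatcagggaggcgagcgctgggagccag
Scnn1b, chr7:121864788-121865087, plus strand: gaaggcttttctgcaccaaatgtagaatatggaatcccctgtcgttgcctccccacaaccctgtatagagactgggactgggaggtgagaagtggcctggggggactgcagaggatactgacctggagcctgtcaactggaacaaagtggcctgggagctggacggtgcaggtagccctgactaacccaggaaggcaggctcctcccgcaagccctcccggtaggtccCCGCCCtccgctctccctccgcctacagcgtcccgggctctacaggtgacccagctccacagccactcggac
Scnn1g, chr7:121734229-121734528, plus strand: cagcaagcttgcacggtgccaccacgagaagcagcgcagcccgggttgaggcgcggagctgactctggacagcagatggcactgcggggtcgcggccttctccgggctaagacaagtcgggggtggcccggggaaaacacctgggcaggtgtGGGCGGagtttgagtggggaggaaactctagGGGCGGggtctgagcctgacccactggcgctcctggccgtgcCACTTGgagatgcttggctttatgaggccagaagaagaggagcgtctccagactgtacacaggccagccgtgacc
The windows differed in base composition, with 4 CpG dinucleotides in Gabrp, 42 in Cacna2d1, 10 in Scnn1b and 18 in Scnn1g, beside a median of 7 over all windows. Gabrp held none of the motifs, Cacna2d1 held the GC box 7 times and Scnn1b once. Scnn1g held the GC box 2 times and the NKX2-1 motif once. A match is a description of letters and not a bound site.

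Of the chloride channel genes, Cftr was lowest and Ano1 highest in Club cells. Cftr (ENSMUSG00000041301, chromosome 6, 18170687 to 18322768), the cAMP-regulated chloride and bicarbonate channel, had 2327 and 1505 in AT2, 1513 and 1534 in BASC, and 629 and 370 in Club cells. It was 3.84-fold higher in AT2 than in Club cells (log2 fold change 1.95 ± 0.30, limma adjusted p = 0.00442) and 3.05-fold higher in BASC (adjusted p = 0.0141). The call for BASC was lost without BASC replicate 1 or 2 (adjusted p = 0.0928 and 0.102). BASC and AT2 overlapped (adjusted p = 0.726).

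Ano1 (ENSMUSG00000031075, chromosome 7, 144588549 to 144738592), the calcium-activated chloride channel, had 325 and 293 in AT2, 197 and 169 in BASC, and 2634 and 2215 in Club cells. Both BASC samples lay below all other samples. Ano1 was 13.2-fold lower in BASC than in Club cells (log2 fold change -3.72 ± 0.21, adjusted p = 7.61e-05) and 7.85-fold lower in AT2 (adjusted p = 0.000125). The lower level in BASC than in AT2 was not called (log2 fold change -0.75 ± 0.21, adjusted p = 0.187). Per kilobase the ratio of Cftr to Ano1 was 5.76 and 4.13 in AT2, 6.18 and 7.3 in BASC, and 0.192 and 0.134 in Club cells.

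**Figure D2:**
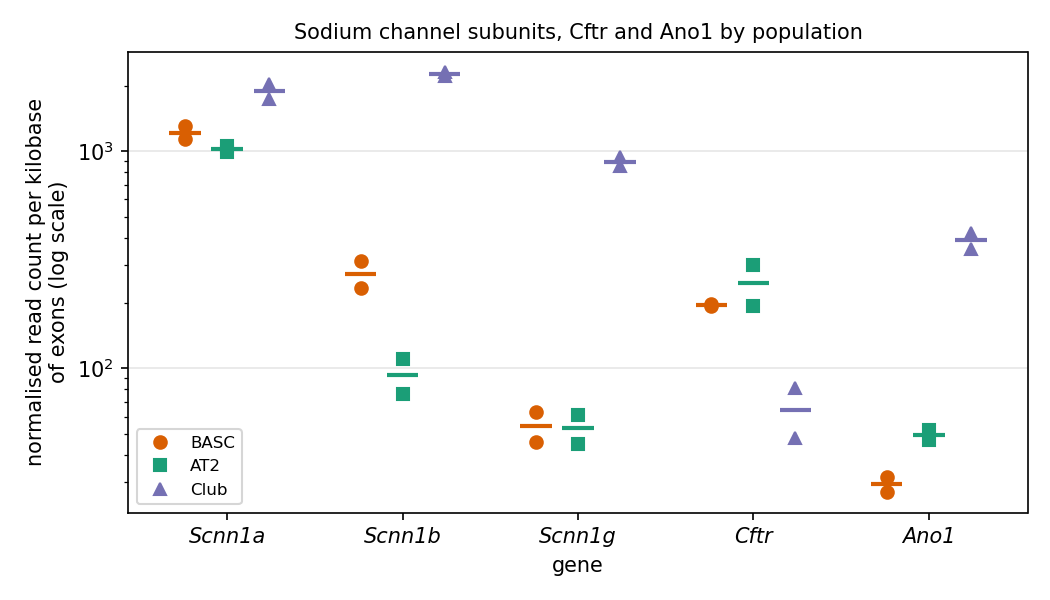
Normalised read count per kilobase of exons (log axis) of the 3 sodium channel subunit genes, Cftr and Ano1, with 1 point per sample and a bar at the mean of each population. Club cells are highest for Scnn1a, Scnn1b, Scnn1g and Ano1 and lowest for Cftr. BASC lies between the others for Scnn1a and Scnn1b and lowest for Ano1.

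Ano6, a calcium-activated lipid scramblase that also conducts ions, had 3846 and 3649 in AT2, 3584 and 3559 in BASC, and 1317 and 1405 in Club cells. It was 2.75-fold higher in AT2 (adjusted p = 0.000204) and 2.62-fold higher in BASC (adjusted p = 0.000434) than in Club cells. Ano6 thus led the anoctamin genes per kilobase in BASC and AT2, and Ano1 led them in Club cells. The Clcn family holds surface chloride channels and the chloride-proton exchangers of endosomes and lysosomes. Limma called none of its 7 genes in any comparison. Of all genes, 11.2% were called between BASC and Club cells and 18.1% between AT2 and Club cells. With 7 genes, the lack of calls does not set the family apart from these shares. At an unadjusted p under 0.05, 1 was higher in BASC and 2 in AT2 than in Club cells, beside 2001 and 2471 of all 17721 genes. Clcn3, an endosomal exchanger, had 1122 and 1346 in AT2, 859 and 1114 in BASC, and 1330 and 1280 in Club cells. Clcn4 lay between 709 and 964 in the 6 samples. Exons of Clcn4 share 11.5% of their bases with an antisense gene.

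Potassium channel genes made up 58 of the 131, and 41 of them were tested. Between AT2 and Club cells 4 were higher and 7 lower in AT2, between BASC and Club cells 4 were higher and 4 lower in BASC, and between BASC and AT2 1 was higher in BASC. The shares were 9.76% and 17.1% beside 8.42% and 9.71% of all genes, 9.76% and 9.76% beside 5.77% and 5.42%, and 2.44% beside 0.553%, so the share higher in AT2 than in Club cells was near that of all genes. Called genes included auxiliary subunits that partner with the pore subunit KCNQ1, a channel of the basolateral membrane of many epithelia. Kcne2 (ENSMUSG00000039672, chromosome 16, 92292389 to 92298129) had 1385 and 1870 in AT2, 1376 and 1549 in BASC, and 21 and 29 in Club cells. It was 58.5-fold higher in BASC (log2 fold change 5.83 ± 0.27, limma adjusted p = 3.93e-05) and 65.1-fold higher in AT2 (adjusted p = 1.68e-05) than in Club cells.

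Kcne3 (ENSMUSG00000035165, chromosome 7, 100176679 to 100184869), another KCNQ1 partner, had 188 and 184 in Club cells and was listed at 0 in all 4 BASC and AT2 samples. Against 3 reads per library, averaged over a group, Kcne3 was at least 54.9-fold lower in BASC (adjusted p = 0.00459) and at least 67.6-fold lower in AT2 (adjusted p = 0.00279). Kcnq1 itself had 433 and 362 in AT2, 644 and 312 in BASC, and 558 and 652 in Club cells, and it was called in no comparison. The BASC samples of Kcnq1 lay on either side of both AT2 samples and of the lower Club sample. Per kilobase the ratio of Kcne2 to Kcnq1 was 7.41 and 12 in AT2, 4.95 and 11.5 in BASC, and 0.0872 and 0.103 in Club cells. The ratio of Kcne3 to Kcnq1 in Club cells was 0.775 and 0.649. Exons of Kcnq1 share 2.96% of their bases with Kcnq1ot1 on the other strand, and no strand setting is given for the counting.

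Among pore-forming potassium channels, Kcnj2, an inward rectifier that stabilises the resting potential, had 2650 and 1694 in AT2, 2500 and 1728 in BASC, and 293 and 273 in Club cells. Kcnj2 was 7.67-fold higher in AT2 (adjusted p = 0.000421) and 7.47-fold higher in BASC (adjusted p = 0.000725) than in Club cells. Kcnj15, a further inward rectifier and the channel gene with the highest per-kilobase mean in AT2 and BASC, was called in no comparison. Its counts were 8877 and 9792 in AT2, 7072 and 10322 in BASC, and 5423 and 6508 in Club cells. Kcnh3, a voltage-gated channel known from the forebrain, had 98 and 109 in Club cells and was listed at 0 in the other 4 samples, at least 37.6-fold lower in AT2 (adjusted p = 0.00477) and 30.6-fold lower in BASC (adjusted p = 0.00748).

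Tandem-pore potassium channels carry background currents, and Kcnk2 (ENSMUSG00000037624, chromosome 1, 189207930 to 189402218) encodes one that responds to stretch and lipids. Kcnk2 had 115 and 147 in AT2, 861 and 1222 in BASC, and 2877 and 3834 in Club cells. The populations did not overlap, and all 3 steps were called: BASC was 7.95-fold above AT2 (log2 fold change 2.97 ± 0.25, adjusted p = 0.00491) and 3.22-fold below Club cells (adjusted p = 0.00645), and AT2 was 25.6-fold below Club cells (adjusted p = 3.49e-05). Without BASC replicate 1 or 2 the step from AT2 was not called (adjusted p = 0.0751 and 0.174), nor the step to Club cells without BASC replicate 1 (0.0568). Without the mean trend in the variance model both steps missed the threshold (0.0598 and 0.069). An antisense gene listed between 0 and 61 covers 12.2% of the exon bases of Kcnk2. Kcnk1, a weakly conducting relative, had 495 and 526 in AT2, 815 and 972 in BASC, and 983 and 1174 in Club cells. Only its difference between AT2 and Club cells, 2.11-fold, was called among the 3 (adjusted p = 0.00777, and 0.0763 without Club replicate 2). The calcium- or sodium-activated potassium channel genes were low. Their highest members by mean, Kcnn2 and Kcnt1, lay between 3 and 132 and between 12 and 42 in the 6 samples. Limma called none of 5 tested in any comparison. At an unadjusted p under 0.05, 1 was higher in BASC than in Club cells, beside 2001 of all 17721 genes. Against Club cells 1 was higher and 1 lower in AT2, beside 2471 and 2936 of all genes. Kcnip4, an auxiliary subunit that binds voltage-gated potassium channels, had 70 and 19 in AT2, 35 and 133 in BASC, and 209 and 202 in Club cells and was not called.

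Voltage-gated calcium channels combine a pore subunit with alpha2delta and beta subunits. The only pore gene called, Cacna1c, went the opposite way from the called alpha2delta and beta genes. With 1 called pore gene, this does not show a split by subunit class. Cacna1c (ENSMUSG00000051331, chromosome 6, 118587240 to 119196418), the pore of the cardiac type of L-type channel, had 1967 and 1908 in AT2, 1350 and 1395 in BASC, and 223 and 294 in Club cells. It was 5.31-fold higher in BASC (log2 fold change 2.42 ± 0.19, limma adjusted p = 0.000302) and 7.5-fold higher in AT2 (adjusted p = 7.81e-05) than in Club cells. Cacna2d1 (ENSMUSG00000040118, chromosome 5, 15934691 to 16374511), an alpha2delta subunit that brings channels to the cell surface, had 39 and 48 in BASC, was listed at 0 in both AT2 samples, and had 755 and 768 in Club cells. BASC was at least 15.8-fold above AT2 (adjusted p = 0.0378) and 17.5-fold below Club cells (adjusted p = 0.0177). The first call was kept only without AT2 replicate 1, with adjusted p of 0.174 and 0.24 without BASC replicate 1 and 2, 0.0518 without AT2 replicate 2, and 0.128 and 0.127 without Club replicate 1 and 2. The second was lost without any BASC or Club sample (0.0576 to 0.252). Per kilobase the ratio of Cacna1c to Cacna2d1 was 20.3 and 17 in BASC and 0.173 and 0.224 in Club cells.

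Of 14 voltage-gated calcium channel genes tested, 1 was higher and 3 lower in BASC than in Club cells, with the same numbers for AT2. These are 7.14% and 21.4%, beside 5.77% and 5.42% of all genes for BASC and 8.42% and 9.71% for AT2. Of 4 beta subunit genes tested, Cacnb1 and Cacnb2 were called against Club cells. Cacnb3 and Cacnb4, also named after their values were seen, were not (limma adjusted p from 0.145 to 0.549). Cacnb1 had 157 and 79 in AT2, 151 and 106 in BASC, and 495 and 396 in Club cells, 3.78-fold lower in AT2 (adjusted p = 0.0208) and 3.47-fold lower in BASC (adjusted p = 0.041). Both calls were lost without either Club sample, that for BASC also without either BASC sample and that for AT2 also without AT2 replicate 2 (adjusted p from 0.0733 to 0.277). Cacnb2 had 3 and 0 in BASC, was listed at 0 in AT2, and had 137 and 108 in Club cells. AT2 was at least 44.5-fold below Club cells in Cacnb2 (adjusted p = 0.00678). With an estimated 2 reads in BASC, the fold between Club cells and BASC was 81.7 (95% counting interval 22.4 to 678, adjusted p = 0.0195, and 0.064 without BASC replicate 2).

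TRP channels are cation channels, many of them permeable to calcium or magnesium. Of 10 TRP genes tested, Trpv6 and Trpv4 were called between AT2 and Club cells, in opposite directions. The shares higher and lower in AT2, 10% and 10%, were near the 8.42% and 9.71% of all genes. Trpv6 (ENSMUSG00000029868, chromosome 6, 41620624 to 41636405), a calcium-selective channel of absorbing epithelia, had 432 and 342 in AT2, 237 and 267 in BASC, and 11 and 84 in Club cells. It was 8.15-fold higher in AT2 than in Club cells (adjusted p = 0.0248). The Club samples differed widely. The call was lost without either BASC or either AT2 sample (adjusted p from 0.0686 to 0.121). Trpv4 (ENSMUSG00000014158, chromosome 5, 114622152 to 114658421), an osmotically and mechanically gated channel, had 0 and 3 in AT2, 66 and 12 in BASC, and 275 and 196 in Club cells (AT2 against Club, adjusted p = 0.00788, and 0.0621 without Club replicate 1). With an estimated 3 reads in AT2, the fold between Club cells and AT2 was 157 (95% counting interval 53.4 to 764). The magnesium-permeable channels Trpm6 and Trpm7 were the highest TRP genes by mean and were not called. Trpm6 lay between 2898 and 3480 and Trpm7 between 1453 and 1758 in the 6 samples. Trpc4ap, which the name pattern includes, encodes a protein that binds a TRP channel and not a channel subunit, and it lay between 1027 and 1314.

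Ligand-gated channels included the highest channel gene per kilobase in Club cells. Gabrp (ENSMUSG00000020159, chromosome 11, 33550781 to 33578957), the pi subunit of the GABA-A receptor, a chloride channel opened by GABA, had 2 and 0 in AT2, 789 and 954 in BASC, and 10248 and 9384 in Club cells. The 3 populations were far apart. BASC lay 11.3-fold below Club cells (log2 fold change -3.50 ± 0.50, limma adjusted p = 0.00557), and with an estimated 3 reads in AT2 the fold of BASC over AT2 was 872 (95% counting interval 298 to 4230, adjusted p = 0.0007). Without BASC replicate 1 or 2 neither was called (adjusted p = 0.0655 and 0.0611 against Club cells, 0.073 and 0.101 against AT2). Gabrp took 22.4% and 19.6% of the per-kilobase level summed over all 131 genes in the Club samples. Gabre, the epsilon subunit, had 205 and 201 in AT2, 340 and 425 in BASC, and 425 and 488 in Club cells, and was 2.25-fold lower in AT2 than in Club cells (adjusted p = 0.0195, and 0.0587 to 0.179 without any AT2 or Club sample).

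Nicotinic and P2X receptors are cation channels opened by acetylcholine and ATP. Chrnb1 (ENSMUSG00000041189, chromosome 11, 69784036 to 69795943), the beta subunit of the muscle type of nicotinic receptor, had 850 and 644 in AT2, 557 and 732 in BASC, and 109 and 106 in Club cells. It was 6.95-fold higher in AT2 (adjusted p = 0.000519) and 6-fold higher in BASC (adjusted p = 0.00127) than in Club cells. Chrna1, which encodes the alpha subunit that pairs with it in muscle, was listed at 0 in BASC and AT2 and had 10 and 13 in Club cells. Chrnb2 was not called, with values between 5 and 73, and shares 16.3% of its exon bases with Adar on the other strand. P2rx4, known from the lamellar bodies of AT2 cells, had 632 and 658 in AT2, 691 and 669 in BASC, and 1449 and 1625 in Club cells, and was 2.38-fold lower in AT2 (adjusted p = 0.00204) and 2.26-fold lower in BASC (adjusted p = 0.00446) than in Club cells. P2rx5 went the other way, with 357 and 212 in AT2, 185 and 141 in BASC, and 42 and 39 in Club cells (adjusted p = 0.0346 for BASC and 0.00655 for AT2 against Club cells, the former 0.0896 to 0.142 without any BASC or Club sample). P2rx7, a low-affinity ATP receptor, had 5 and 0 in AT2, 11 and 3 in BASC, and 260 and 155 in Club cells, and was lower in AT2 than in Club cells (adjusted p = 0.0138, and 0.142 and 0.087 without Club replicate 1 and 2).

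Several called genes had means under 100 in every population. Chrna1, Kcnj10, Kcnj11 and Kcnk12 were lower in AT2 than in Club cells, Kcnj10 was also lower in BASC, and Kcng2 was higher in BASC than in Club cells (adjusted p = 0.04997). Kcng2 had 16 and 27 in AT2, 59 and 45 in BASC, and 0 and 4 in Club cells.

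The level of BASC was set between the other populations for the 24 channel genes that were called between AT2 and Club cells with a log2 fold change of at least 2 in size. On a log2 scale on which Club cells lie at 0 and AT2 cells at 1, the median position of BASC was 0.876 for the 8 genes higher in AT2 and 0.81 for the 16 higher in Club cells. Over all genes chosen the same way the medians were 0.814 (712 genes) and 0.714 (1177 genes). Where the lower group is listed at or near 0 the position depends on the pseudocount. Examples are Cacna2d1, Cacnb2 and Kcnk12, listed at 0 in AT2, and Gabrp, Trpv4 and P2rx7, which are near 0 there. The position is fixed at 1 for Kcne3, Kcnh3, Kcnj10 and Chrna1, which are at 0 in BASC too. Without genes whose lower group is listed at 0 the medians were 0.923 (7 genes) and 0.663 (9 genes), beside 0.822 (572 genes) and 0.622 (662 genes). Gabrp, Trpv4 and P2rx7 stay among the 9 genes. Among genes higher in AT2 the position was 0.829 for Cacna1c, 0.923 for Chrnb1 and 0.976 for Kcne2. Genes higher in Club cells ranged from 0.281 for Gabrp, 0.363 for Kcnk2, 0.429 for Cacna2d1 and 0.663 for Scnn1b to 0.991 for Scnn1g and 1.26 for Ano1. Single BASC samples gave 0.291 and 0.27 for Gabrp and 0.708 and 0.619 for Scnn1b, but 0.262 and 0.607 for the low-count gene Trpv4. Both BASC samples lay above all other samples in 4 of 105 genes tested (3.81%, beside 6.22% of all genes) and below them in 5 (4.76%, beside 6.55%). The first were Gabrb1, Kcng2, Gabrq and Chrna4, and the second included Clcn3, Ano1, Clcn2 and P2rx2, each named after its values were seen.

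**Figure D3:**
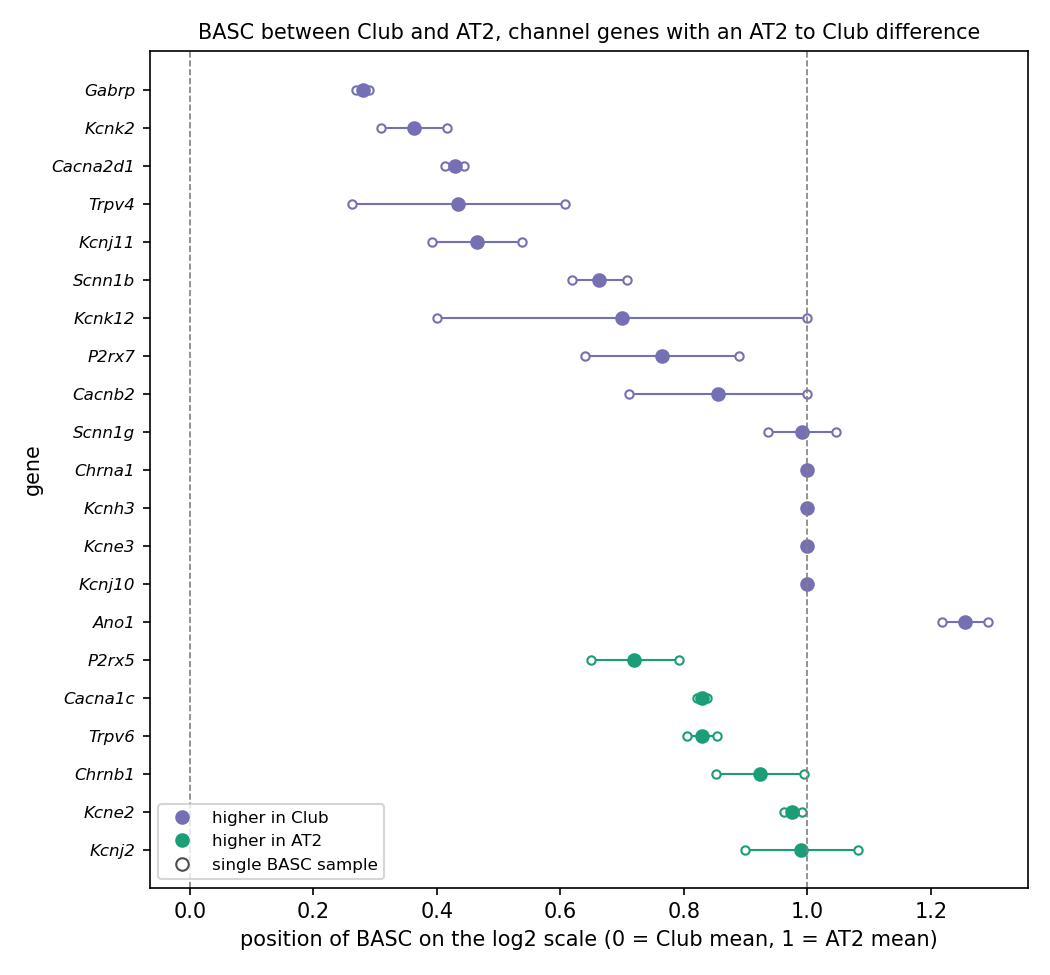
Position of BASC on the log2 scale for 21 of the 24 channel genes, where 0 is the Club mean and 1 the AT2 mean. Filled points are the BASC means, open points the single BASC samples, and Gabrp (0.281) and Ano1 (1.26) mark the ends of the range.

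Several abundant channel genes were called in no comparison. Among the 50 channel genes whose mean reached 100 in some population, 27 were called in at least 1 comparison. The matching share of all genes at that level is not given, so this count does not set channel genes apart. Of those not called, 14 had a mean of at least 300 over the 6 samples, led by Kcnj15, Trpm6, Trpm7, Trpc4ap and Clcn3. Kcnj13, an inward rectifier of transporting epithelia, lay between 384 and 515, but 49.1% of its exon bases are shared with Gigyf2 on the other strand. An adjusted p above the threshold does not show that levels were equal.

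**Figure D4:**
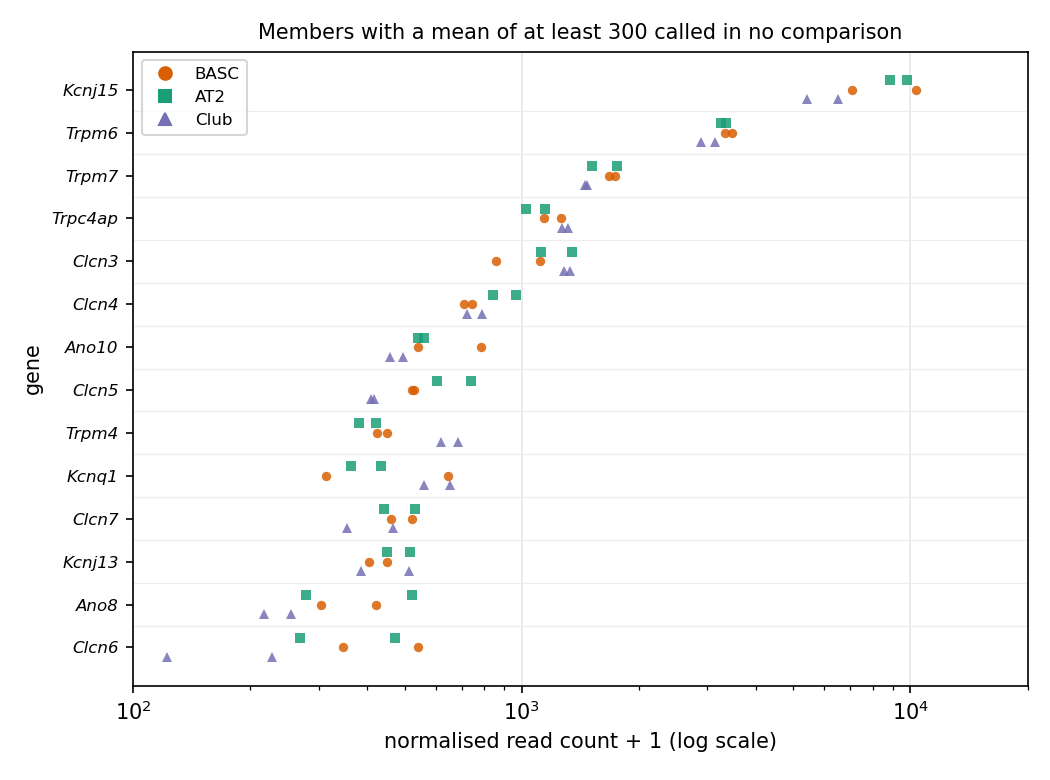
Normalised read count plus 1 on a log axis for the 14 channel genes with a mean of at least 300 that were called in no comparison, with 1 point per sample. Trpm6 and Trpm7 differ little between samples, while Kcnq1 and Clcn6 have replicates far apart.

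Genes that work with the channels were examined in 3 lists. Of 16 regulators of the epithelial sodium channel, 3 were higher and 6 lower in BASC than in Club cells, with the same numbers for AT2 against Club cells. These are 18.8% and 37.5%, beside 5.77% and 5.42% of all genes for BASC and 8.42% and 9.71% for AT2. Limma called none between BASC and AT2. At an unadjusted p under 0.05, 3 were higher and 1 lower in BASC, beside 1257 and 1079 of all 17721 genes. Sgk1, a kinase that keeps the channel at the surface, had 223 and 392 in AT2, 264 and 237 in BASC, and 826 and 671 in Club cells (adjusted p = 0.0218 for BASC and 0.0272 for AT2). Nr3c1, the glucocorticoid receptor gene, named after its values were seen, was higher in BASC and AT2 (adjusted p = 0.0151 and 0.00332), with 1964 and 2161 in AT2, 1774 and 1682 in BASC, and 822 and 1048 in Club cells. Nr3c2, the mineralocorticoid receptor gene, had 627 and 372 in AT2, 571 and 601 in BASC, and 1165 and 1393 in Club cells (adjusted p = 0.0391 for BASC and 0.0118 for AT2). Bpifa1, a secreted inhibitor of the channel, had 1 and 5 in AT2, 480 and 21 in BASC, and 64511 and 25250 in Club cells (adjusted p = 0.00741 for BASC and 0.000605 for AT2). The membrane protease genes Tmprss2 and Tmprss4, whose products can cleave channel subunits, stood in opposite order. Tmprss2 had 373 and 419 in AT2, 1033 and 807 in BASC, and 1767 and 1549 in Club cells, and Tmprss4 had 912 and 936, 654 and 497, and 263 and 210. Nedd4, a ubiquitin ligase gene and the second highest of the list by mean, lay between 7935 and 10643 and was not called.

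Of 20 tested partners in salt and fluid transport, 2 were higher and 5 lower in BASC, and 3 higher and 6 lower in AT2, than in Club cells. The shares were 10% and 25% (5.77% and 5.42% of all genes) and 15% and 30% (8.42% and 9.71% of all genes). Slc26a9, an anion channel and exchanger that works with CFTR, had 5682 and 5453 in AT2, 5722 and 5913 in BASC, and 619 and 687 in Club cells, 8.53-fold higher in AT2 (adjusted p = 8.57e-06) and 8.91-fold higher in BASC (adjusted p = 1.52e-05). Aqp4, a water channel, had 0 and 3 in BASC, was listed at 0 in AT2, and had 1052 and 867 in Club cells (adjusted p = 0.00315 for BASC and 0.00119 for AT2). The potassium-chloride cotransporter genes Slc12a4 and Slc12a7 went opposite ways, with Slc12a4 higher and Slc12a7 lower in both BASC and AT2 than in Club cells. Wnk4, a kinase that controls chloride cotransport, had 189 and 257 in AT2, 710 and 593 in BASC, and 1196 and 1237 in Club cells, and was the 1 gene of this list called between BASC and AT2 (2.92-fold higher in BASC, adjusted p = 0.0392). The most abundant partners, the sodium pump subunit Atp1b1 and the cotransporter Slc12a2, were not called, with ranges of 11998 to 18732 and 9018 to 14236.

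Of 39 tested channel genes outside the name pattern, 2 were higher and 3 lower in BASC, and 6 higher and 8 lower in AT2, than in Club cells. For BASC the shares, 5.13% and 7.69%, were near the 5.77% and 5.42% of all genes, and for AT2 they were 15.4% and 20.5% beside 8.42% and 9.71%. Limma called none between BASC and AT2. At an unadjusted p under 0.05, 3 of the 39 were higher and 5 lower in BASC, beside 1257 and 1079 of all 17721 genes. Lrrc8c, a subunit of the volume-regulated anion channel, had 2292 and 2747 in AT2, 3442 and 3849 in BASC, and 443 and 511 in Club cells, 5.28-fold higher in AT2 (adjusted p = 8.66e-05) and 7.64-fold higher in BASC (adjusted p = 6.72e-05). Piezo1, a stretch-gated channel, had 2401 and 2029 in AT2, 2038 and 2071 in BASC, and 1371 and 1435 in Club cells, 1.46-fold higher in BASC (adjusted p = 0.046). Clic6 and the calcium sensor gene Stim2 were lower in both BASC and AT2 than in Club cells, and Clic5 was 3.39-fold lower in AT2 (adjusted p = 0.000817). Grin1, a glutamate receptor subunit gene, was listed at 0 in AT2 and had 73 and 200 in Club cells (adjusted p = 0.0169). The calcium release channel genes Itpr1 and Itpr2 were the highest of the list by mean, and Itpr1 was 1.56-fold lower in AT2 than in Club cells (adjusted p = 0.0212).

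**Figure D5:**
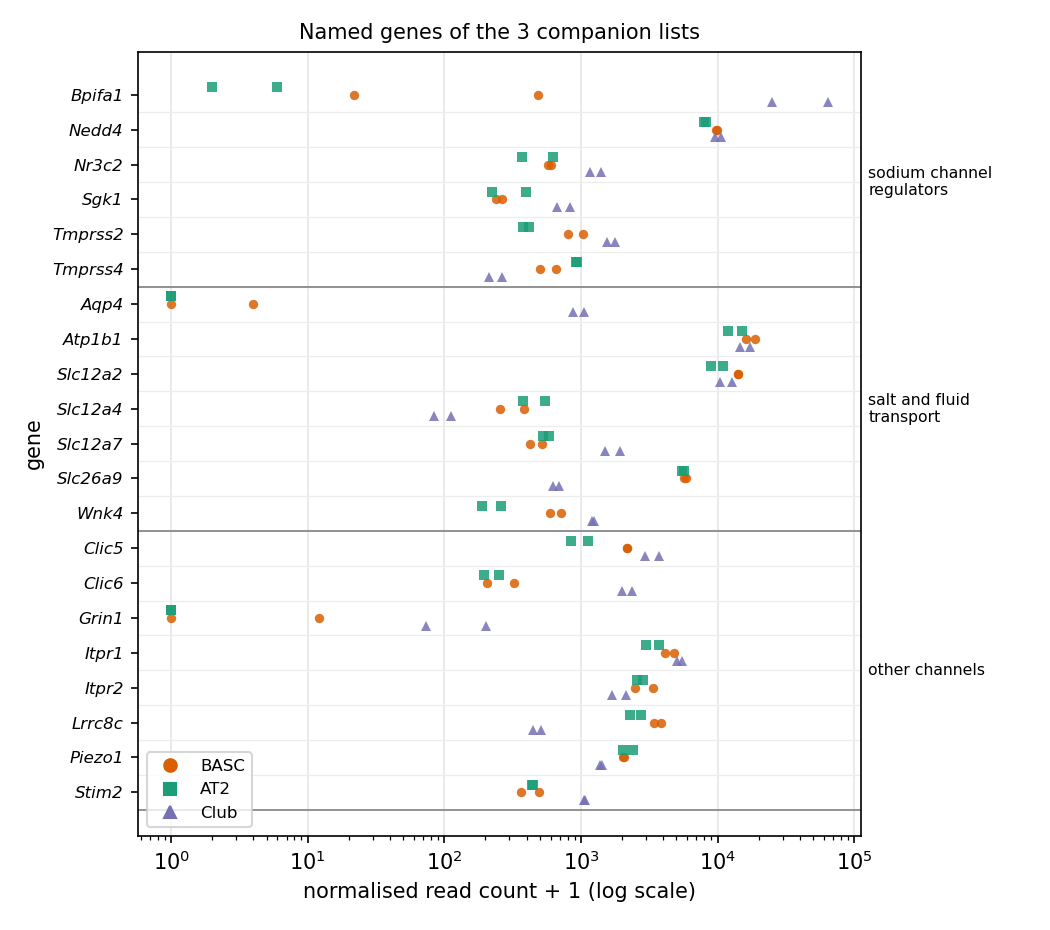
Normalised read count plus 1 on a log axis for the named genes of the 3 lists of channel partners, with 1 point per sample (circles BASC, squares AT2, triangles Club cells). Slc26a9 and Lrrc8c are lowest in Club cells, Bpifa1 and Aqp4 are highest there, and Wnk4 has BASC points between the other populations.

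The calls between BASC and AT2 rested on both BASC samples. Of the 4 channel genes, none was called without BASC replicate 1 or without BASC replicate 2, with adjusted p between 0.073 and 0.272. Their log2 fold changes without 1 sample stayed between 8.18 and 9.76 for Gabrp, 2.72 and 3.22 for Kcnk2, 5.32 and 5.62 for Cacna2d1, and 1.28 and 1.83 for Scnn1b. Fitted without Club cells, limma called none of the 4 either (adjusted p between 0.209 and 0.252). Of the calls against Club cells that meet the naming rule, 12 of 22 for BASC and 19 of 26 for AT2 were kept in every fit without 1 sample in which the gene was tested, among them both calls of Scnn1g, Ano1, Ano6, Kcne2, Kcne3, Kcnj2, Cacna1c and Chrnb1.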

How the data were processed

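RNA of 6 sorted samples (3 populations, 2 samples each) was analysed from 1 deposited table. The tools named are FastQC, STAR 2.4.0a and, from Subread, featureCounts 1.4.5-p1, with the build mm10 (GRCm38), per the submitters' processing notes. How strand was handled, which annotation was used and how values were normalised is not given in the sources used here. Values as deposited are a normalised signal per gene, written as whole numbers. From the spacing of low values, 1 read was worth an estimated 0.764 and 1.07 units in the AT2, 1.34 and 0.917 in the BASC and 0.824 and 1.04 in the Club samples. They were therefore not treated as raw read numbers, and no count model was run.

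On the log2(value + 1) scale, every gene that reached 10 in 2 or more samples was fitted by group over all 6 samples with limma 3.58.1 under R 4.3.3 (trend in eBayes, 3 residual and 4.2 prior degrees of freedom), with two-sided tests and Benjamini-Hochberg adjustment over all 17721 genes. Every adjusted p in the text comes from this fit, with 2 samples per group, unless another fit is named with it. The other fits left out a sample or a population, dropped the mean trend or added a replicate block. A fold compares the means of 2 groups, while log2 fold changes and their SE come from the fit. A group listed at 0 was set to 3 reads per library for a lower bound. Where the lower group held 1 to 3 reads, an exact binomial 95% interval covers counting error only. Levels per kilobase used the union of exons in GENCODE mouse release 21, in which 84 of the 131 genes have the deposited coordinates. Scnn1b, Ano1, Kcnq1, Kcne3 and Gabrp are not among the 84, so levels of different genes compare only roughly. The same lengths were used in every population. The fit was tested on simulated data whose spread between samples was set by a formula and need not be that of these data. Coordinates are those deposited, and promoters are RefSeq's for GRCm38.p6.

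The members and lists were chosen with earlier results of these data known. Named were Cftr and the 3 epithelial sodium channel genes, up to 12 called members per comparison and direction whose mean reached 100 in the higher group, the 2 highest of each family, members listed at 0 in 1 group with a mean of at least 100 in another, and for each list up to 4 called genes and the 2 highest. Alternatives were other pseudocounts, filters, scalings, variance models and sample sets. Some genes that the rule selects are not reported here, in text or figures, but stay in the counts.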

Additional observations from a re-analysis of the deposited data

How the results depend on the processing

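Counts of channel genes called were within 1.5 times the value reported under other pseudocounts, filters, scalings (quantile normalization, equal totals over protein coding genes) and without the mean trend. The exception was the count higher in BASC than in AT2, which was 0 in place of 4 when only the 2 groups compared were fitted, a fit with fewer samples. Without 1 sample in turn it ranged from 0 to 3, the count lower in BASC than in Club cells from 6 to 16 (15 with all samples), and the count lower in AT2 than in Club cells from 9 to 26 (21 with all samples). These fits take the spread of a lone sample from the other groups. The lowest values came without a BASC sample or AT2 replicate 2 (BASC against AT2), without a BASC or Club sample (BASC against Club) and without a Club sample (AT2 against Club). The other 3 counts stayed within 1.5 times. Shares of all genes called in these other fits are not given, so whether the changes are particular to channel genes was not tested. A count does not say which genes: without the mean trend 3 were higher in BASC than in AT2, but only Gabrp and Cacna2d1 of the 4 reported were among them.

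Of 52 named calls, 52 were kept under both scalings, 51 with log2(value + 10), 49 with log2(value + 0.5), 50 without a filter and 35 without the mean trend. Among those lost without the trend were Cftr (adjusted p = 0.0551 in AT2 and 0.109 in BASC against Club cells), Scnn1a (0.106 and 0.25) and Kcnk2 and Scnn1b between BASC and AT2 (0.0598 and 0.203); the cause was not tested. Among the uncalled differences between BASC and AT2 of Cftr and the epithelial sodium channel genes, 3 fits changed a sign: Cftr to 0.018 without AT2 replicate 1 (range -0.61 to 0.018 without 1 sample), and Scnn1g to -0.19 without BASC replicate 2 and also -0.19 without AT2 replicate 1 (range -0.19 to 0.262). With equal totals over protein coding genes the median log2 fold change of all genes in AT2 against Club cells moved from -0.10 to -0.22, and no named call was lost.

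In the labels, samples of the same number share only that number. Over genes, deviations of same-numbered samples correlated at 0.006, 0.00846 and 0.0118 in the 3 pairs of groups. Such values show no common shift over genes, but they cannot tell whether these samples shared animals or a sorting day. With the replicate number as a block, 3 and 0 channel genes were higher and lower in BASC than in AT2. The numbers were 10 and 15 in BASC against Club cells, and 11 and 22 in AT2 against Club cells. Shares of all genes in this fit are not given. Here limma did not call Cacna2d1 between BASC and AT2 (adjusted p = 0.055).

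Per-kilobase levels with the longest transcript in place of the union of exons, an alternative chosen after seeing the data, kept the order of Cftr and Ano1 in each population. The ratio of Scnn1a to Scnn1b in Club cells moved from 0.785 and 0.886 to 0.913 and 1.03, which turns the lead to Scnn1a in replicate 2. Depth limits the low genes: a count of 0 allows up to 3 reads.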
